A study of Drosophila melanogaster with 10 samples.

Results

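Respiratory complexes II to V are assembled in the inner mitochondrial membrane from many subunits, most of them encoded in the nucleus, and 34 nuclear genes for such subunits, together with cytochrome c, were listed from their known function. Of these genes 28 had a probe set annotated to that gene alone, out of 11982 named genes on the array. They were 3 of 4 complex II genes, 6 of 8 complex III genes, 8 of 9 complex IV genes and 11 of 12 complex V genes. SdhA, UQCR-C1, UQCR-C2 and Cyt-c-p had no probe set of their own and were not analysed here, and COX6B and ATPsynG were left out because their probe sets are shared with another gene. No filter on low signal was applied, so all 28 measured genes were tested.

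Complex II oxidises succinate and passes electrons to ubiquinone, complex III passes them from ubiquinol to cytochrome c, and complex IV passes them from cytochrome c to oxygen. Complexes III and IV pump protons out of the matrix, and complex V, the ATP synthase, makes ATP as protons flow back. The catalytic core of complex IV and parts of complexes III and V are encoded by mitochondrial DNA, and no probe set for those genes was analysed here.

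RNA came from Drosophila S2 cells, an embryonic line with properties of blood cells (haemocytes). Per the series' design, stable lines were given copper sulfate to switch on a knockdown of SLIMP, an insect relative of seryl-tRNA synthetase in mitochondria, and living cells were sorted by a DNA dye into G1 and G2/M. The 10 libraries fell into G1 control (n = 3), G2/M control (n = 3), G1 SLIMP knockdown (n = 2) and G2/M SLIMP knockdown (n = 2), where control cells are labelled WT, with no line or clone named. RNA was taken from 25000 cells per library and amplified for 15 PCR cycles before hybridisation to 1-colour Affymetrix arrays. A G1 and a G2/M library with the same genotype label and the same number are treated as 1 culture here, which gives control 1, control 2, control 3, knockdown 2 and knockdown 3. The labels do not say that numbers stand for separate cultures, so a p-value here weighs a difference only against the spread of these samples, and that spread may be technical.

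The sort followed the labels, and the genotype did not. All 4 measured G2/M marks rose in G2/M, with ncd, a mitotic kinesin gene, 2.02 higher and CycB3, a mitotic cyclin gene, 1.29 higher on the log2 scale. CycB, another mitotic cyclin gene, rose least, by 0.53. Within cultures it rose by 0.12 in control 3 and 0.30 in knockdown 2, against 0.67 to 0.79 in the others. All 6 haemocyte marks were measured, at 7.32 to 13.43 (log2), and their summed log2 level was 63.70 to 66.01 in G1 and 63.88 to 65.66 in G2/M. With no other cell type among the libraries and no detection calls used, these levels describe the cells and do not test their type. Slimp itself read between 8.68 and 9.06 in the 6 libraries of control 1, control 2 and knockdown 3, and between 12.51 and 12.59 in the 4 libraries of control 3 and knockdown 2. The target gene therefore goes against the labels, and no direction is drawn from the genotype below.

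The first comparison asked how the subunit transcripts differ between cells in G2/M and cells in G1. Most were higher in G2/M, by modest amounts. Of the 28 genes 18 rose, by 1.13- to 1.44-fold, with examples in each of complexes II, III, IV and V. The complex II membrane anchor gene SdhD (1.44-fold), the ATP synthase rotor gene ATPsyndelta (1.35-fold) and the complex II iron-sulfur gene SdhB (1.31-fold) had the smallest p-values. UQCR-11, a small subunit of complex III, was the 1 gene that fell, to 0.862 times its G1 level. The other 9 genes did not pass the test.

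The test was limma with culture as a block, on log2 values, with Benjamini-Hochberg adjustment across the 18769 probe sets tested and a threshold of 0.05. At that threshold 10.3% of all probe sets were higher in G2/M and 9.00% were lower, against 18 (64.3%) and 1 of the 28 genes. The median log2 difference was 0.224 over the 28 genes and 0.0046 over all probe sets. In all 5 cultures 24 genes were higher in G2/M, as were 15.7% of probe sets, and UQCR-11 was lower in all 5, as were 13.6% of probe sets. Every G2/M library lay above every G1 library for 8 genes (SdhB, SdhD, UQCR-14, COX7C, blw, ATPsyndelta, ATPsynD and ATPsynCF6), a separation that 6.01% of probe sets showed. The genes were chosen by function with earlier results of these data known. RMA, the authors' normalization, brings all arrays to 1 distribution, so these are differences relative to the other transcripts, and a change shared by most transcripts would not show. In sorted bulk cells, fewer cells expressing a gene and less of its RNA per cell cannot be told apart. Without the culture block, 7 genes were called (6 higher, UQCR-11 lower), against 7.29% of probe sets.

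**Figure D1:**
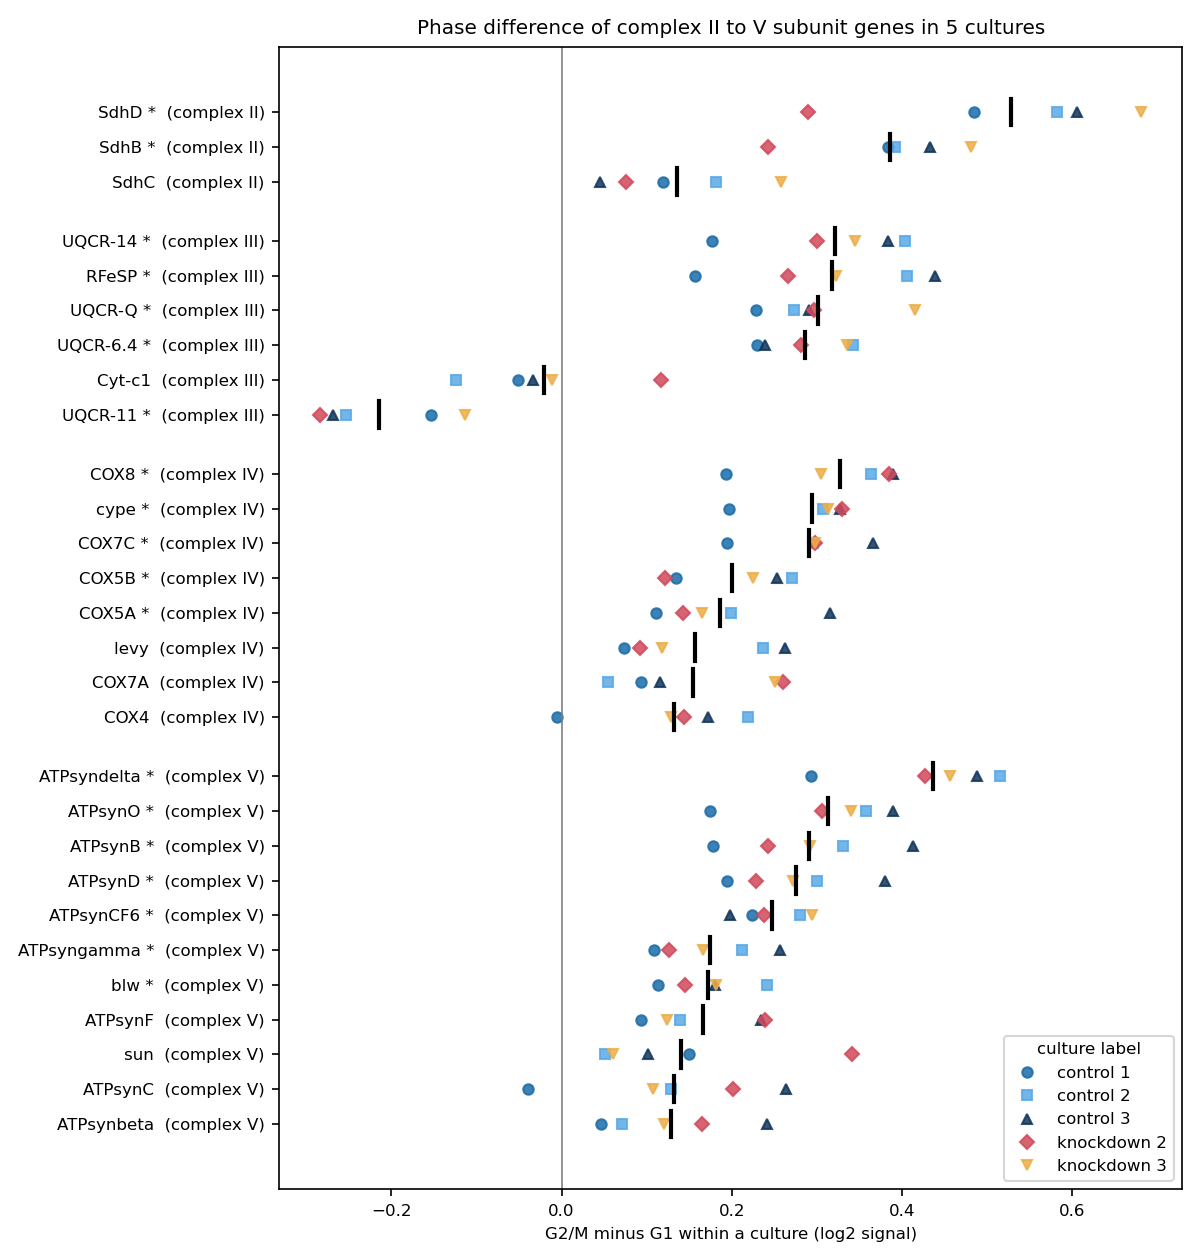
The G2/M minus G1 difference (log2) of each of the 28 genes within each of the 5 cultures, by complex, where points are cultures, the black bar is the estimate over 5 cultures and a star marks an adjusted p under 0.05. Most points lie above 0, SdhD and ATPsyndelta stand highest at 0.53 and 0.44, and UQCR-11 is the gene with all 5 points below 0.

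Complex II gave the largest difference among the 28 genes. SdhD, which anchors the enzyme in the membrane and takes part in binding ubiquinone, read 10.21, 10.20 and 9.87 (log2) in G1 of control 1, 2 and 3 and 10.04 and 10.11 in G1 of knockdown 2 and 3. In G2/M it read 10.69, 10.78 and 10.47 in the 3 control libraries and 10.33 and 10.79 in the 2 knockdown libraries. The G2/M libraries were all above the G1 libraries, with the narrowest step, 0.29, in knockdown 2. The estimate was 0.53 ± 0.066 (SE, n = 5 cultures; adjusted p = 0.00122 in limma).

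SdhB carries the iron-sulfur clusters that conduct electrons through complex II. Its G1 values, in the order control 1, 2, 3, knockdown 2, 3 that is kept below, were 10.19, 10.14, 10.13, 10.31 and 10.04. Its G2/M values were 10.57, 10.53, 10.56, 10.55 and 10.52. The 5 G2/M libraries lay close together and above every G1 library, and the difference was 0.39 ± 0.055 (SE, n = 5 cultures; adjusted p = 0.00201 in limma). SdhC, the other membrane anchor, read 10.95, 10.80, 10.81, 10.68 and 10.87 in G1 and 11.07, 10.98, 10.86, 10.76 and 11.13 in G2/M. It was higher in G2/M within each culture, but its G1 and G2/M values overlapped and the difference of 0.14 did not pass (adjusted p = 0.120 in limma).

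In complex III, 4 of 6 genes rose, by 0.29 to 0.32 on the log2 scale. RFeSP encodes the Rieske iron-sulfur protein, which takes the first electron from ubiquinol. It read 10.88, 10.74, 10.49, 10.55 and 10.76 in G1 and 11.04, 11.15, 10.93, 10.81 and 11.08 in G2/M (0.32 ± 0.058 SE, adjusted p = 0.00611 in limma). Each culture was higher in G2/M, while knockdown 2 in G2/M stayed below control 1 in G1. A dim second probe set of RFeSP, with a mean of 4.018, gave 0.06 (adjusted p = 0.685 in limma), and with both averaged the gene was not called.

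The 3 other genes that rose encode small subunits without a redox centre. UQCR-14 read 11.21, 10.98, 10.91, 10.96 and 11.06 in G1 and 11.38, 11.39, 11.29, 11.26 and 11.41 in G2/M, with no overlap. UQCR-Q read 10.06, 9.98, 9.71, 9.71 and 9.94 in G1 and 10.29, 10.25, 9.999, 10.01 and 10.36 in G2/M. For UQCR-6.4 the values were 12.17, 12.01, 11.87, 11.79 and 12.12 in G1 and 12.40, 12.35, 12.11, 12.08 and 12.45 in G2/M. UQCR-Q and UQCR-6.4 overlapped between phases, with control 3 and knockdown 2 low in both, and each was higher in G2/M within every culture. The differences were 0.32 for UQCR-14, 0.30 for UQCR-Q and 0.29 for UQCR-6.4, with adjusted p of 0.00441, 0.00460 and 0.00493 in limma.

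UQCR-11 went the opposite way to these partners. It read 8.44, 8.60, 8.58, 8.59 and 8.47 in G1 and 8.28, 8.35, 8.31, 8.30 and 8.36 in G2/M. All G2/M values lay below all G1 values, and the fall was -0.21 ± 0.053 (SE, n = 5 cultures; adjusted p = 0.0216 in limma). The call was lost when a library of control 2, control 3 or knockdown 2 was left out, with differences from -0.26 to -0.17 over all alternatives. Cyt-c1, the cytochrome subunit that hands electrons to cytochrome c, read 12.90, 12.96, 12.83, 12.80 and 12.92 in G1 and 12.85, 12.83, 12.79, 12.92 and 12.91 in G2/M. Its difference was -0.02 (adjusted p = 0.854 in limma), negative in each culture but knockdown 2, and 0.00515 without control 2.

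**Figure D2:**
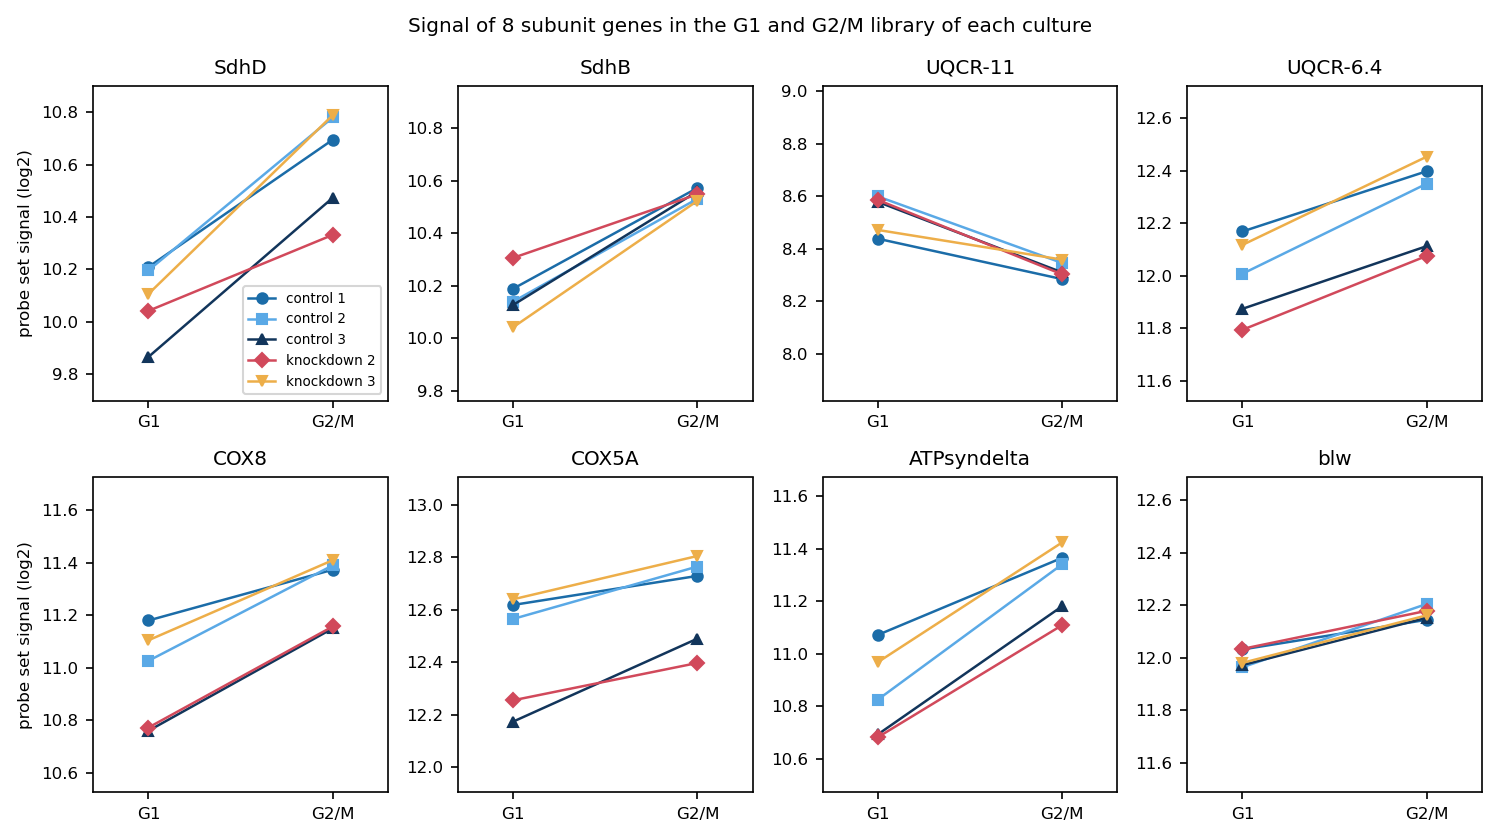
Log2 RMA values of 8 genes in each of the 10 libraries, G1 and G2/M joined within a culture, with panels that each span 1.2 log2 units. SdhD, SdhB and ATPsyndelta separate the phases, UQCR-11 falls, blw holds nearly 1 level per phase, and COX5A and UQCR-6.4 are lower in control 3 and knockdown 2 than in the other 3 cultures.

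In complex IV, 5 of 8 genes rose, by 0.19 to 0.33 on the log2 scale. All the measured genes encode nuclear subunits that surround the mitochondrially encoded core. COX8 had the largest difference, with 11.18, 11.03, 10.76, 10.77 and 11.11 in G1 and 11.37, 11.39, 11.15, 11.16 and 11.41 in G2/M. The difference was 0.33 ± 0.053 (SE, n = 5 cultures; adjusted p = 0.00372 in limma). Within each culture G2/M was higher, and the phases overlapped through G1 of control 1.

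The next by p-value were cype, the fly gene for subunit VIc, and COX7C. The values of cype were 10.95, 10.84, 10.59, 10.60 and 10.82 in G1 and 11.15, 11.15, 10.92, 10.93 and 11.13 in G2/M. COX7C gave 12.52, 12.39, 12.23, 12.26 and 12.44 in G1 and 12.71, 12.68, 12.59, 12.56 and 12.74 in G2/M. The phases separated for COX7C, and for cype only G1 of control 1 reached into the G2/M range. Both differed by 0.29, with adjusted p of 0.00493 for COX7C and 0.00445 for cype in limma. A dim second probe set of COX7C, with a mean of 4.996, gave -0.04 (adjusted p = 0.827 in limma), and with both averaged the gene was not called.

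COX5A and COX5B were called closer to the threshold. COX5B read 11.07, 10.97, 10.87, 10.93 and 11.03 in G1 and 11.20, 11.24, 11.12, 11.05 and 11.25 in G2/M (0.20, adjusted p = 0.0264 in limma). COX5A read 12.62, 12.56, 12.17, 12.25 and 12.64 in G1 and 12.73, 12.76, 12.49, 12.40 and 12.80 in G2/M (0.19, adjusted p = 0.0392 in limma). In both, knockdown 2 in G2/M lay below control 1 in G1, and for COX5A that gap was wide. The COX5A call was lost in 19 of 23 alternatives, among them each in which a library was left out, and the COX5B call in 15. Leaving out either library of a culture or both is the same fit here, so the 23 count each such fit more than once. Not past the threshold were levy (0.16), the gene for subunit VIa, COX7A (0.15) and COX4 (0.13), with adjusted p of 0.0791 to 0.130. COX4, with the smallest difference of the complex, read 11.18, 10.97, 10.89, 11.00 and 11.06 in G1 and 11.17, 11.19, 11.06, 11.14 and 11.19 in G2/M, and it was 0.01 lower in G2/M in control 1.

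In complex V, 7 of 11 genes rose. The ATP synthase is a motor with a catalytic head of alpha and beta subunits, a central stalk that turns in it, a peripheral stalk that holds it still, and a proton-driven ring in the membrane. ATPsyndelta, a central stalk gene, had the smallest p among the 28 genes. It read 11.07, 10.83, 10.69, 10.68 and 10.97 in G1 and 11.37, 11.34, 11.18, 11.11 and 11.42 in G2/M. No G2/M library fell to the G1 range, and the difference was 0.44 ± 0.054 (SE, n = 5 cultures; adjusted p = 0.00120 in limma).

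All 4 measured genes of the peripheral stalk rose. ATPsynO, for the oligomycin sensitivity protein that joins stalk and head, read 12.39, 12.19, 12.04, 12.08 and 12.29 in G1 and 12.56, 12.55, 12.43, 12.39 and 12.63 in G2/M. ATPsynB, for the membrane-anchored rod of the stalk, read 11.50, 11.39, 11.15, 11.24 and 11.40 in G1 and 11.68, 11.72, 11.57, 11.48 and 11.70 in G2/M. Both rose in every culture, by the least in control 1 (0.17 and 0.18), and both overlapped between phases only through G1 of control 1.

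The remaining stalk genes separated the phases completely. ATPsynD gave 12.11, 12.06, 11.85, 11.93 and 12.10 in G1 and 12.30, 12.36, 12.23, 12.16 and 12.37 in G2/M. ATPsynCF6 gave 12.19, 12.11, 12.05, 11.97 and 12.15 in G1 and 12.42, 12.39, 12.25, 12.21 and 12.44 in G2/M. The 4 stalk differences were 0.31 for ATPsynO, 0.29 for ATPsynB, 0.28 for ATPsynD and 0.25 for ATPsynCF6, with adjusted p of 0.00454 to 0.00848 in limma.

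The catalytic head genes had small differences. The alpha subunit gene blw read 12.03, 11.96, 11.97, 12.03 and 11.98 in G1 and 12.14, 12.20, 12.15, 12.18 and 12.16 in G2/M. Its libraries were so close within a phase that the ranges did not meet, although the difference was only 0.17 ± 0.049 (SE, n = 5 cultures; adjusted p = 0.0411 in limma). The call was lost in 19 of 23 alternatives, among them each in which a library was left out. The beta subunit gene ATPsynbeta read 13.03, 13.06, 12.79, 12.90 and 12.92 in G1 and 13.08, 13.13, 13.03, 13.06 and 13.05 in G2/M, higher in each culture but with overlap, and its 0.13 did not pass (adjusted p = 0.132 in limma). Its other probe set gave 0.15 (adjusted p = 0.104 in limma).

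Of the remaining complex V genes, ATPsyngamma of the central stalk rose by 0.17 (adjusted p = 0.0433 in limma), and its other probe set gave 0.14 and did not pass (adjusted p = 0.106). Its call was lost in 19 of 23 alternatives, again with each library left out. ATPsynF (0.17), a membrane subunit gene, sun (0.14), for the epsilon subunit of the central stalk, and ATPsynC (0.13), for the proton-binding ring, did not pass, with adjusted p of 0.0541 to 0.162. The probe sets of ATPsyngamma, ATPsynD, ATPsynF and ATPsynC are of the array's _s_at kind, which can match more than 1 transcript. Of the 19 genes called, SdhB, SdhD and ATPsyndelta were called under all 23 alternatives tried, and 16 were not. ATPsynC was 0.04 lower in G2/M in control 1.

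Among RNA quality measures, the GAPDH 3′ minus 5′ probe difference (log2) was 0.93 to 1.16 in G1 and 1.04 to 1.31 in G2/M, higher in G2/M in 4 of 5 cultures. That for eIF4A was 1.19 to 1.43 in G1 and 1.29 to 1.46 in G2/M, and that for actin 0.35 to 0.65 and 0.35 to 0.52. Of the haemocyte marks, Pxn (0.34) and Hml (0.21) rose and NimC1 (-0.29) fell in G2/M. The part of these in the subunit differences was not tested.

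The next comparisons split the phase difference by genotype label. In libraries labelled control, 26 of 28 genes were higher in G2/M by their group means. The median was 0.227 over the 28 and 0.0219 over all probe sets. But limma called 0 of the 28 without the culture block, against 0.900% of probe sets (169). An unadjusted p under 0.05 was reached by 16 of the 28 and by 2643 probe sets. With culture as a block, 11 rose, against 8.94% of probe sets. In libraries labelled knockdown, 27 of 28 were higher, with a median of 0.253, against -0.0137 over all probe sets. There limma called 0, against 0% of probe sets, with an unadjusted p under 0.05 for 8 genes and 1724 probe sets. With the block it still called 0 of the 28, against 1.68% of probe sets, with 15 of the 28 at an unadjusted p under 0.05. SdhD differed by 0.56 in control and 0.49 in knockdown, ATPsyndelta by 0.43 and 0.44, and UQCR-11 by -0.23 and -0.20.

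The difference between those phase differences was itself tested, and limma called 0 of 28 genes and 0% of probe sets, with an unadjusted p under 0.05 for 0 genes and 333 probe sets. The estimates ran from -0.09 to 0.17 with SEs of 0.104 to 0.261, which is as large as many of the phase differences themselves. This fit had no culture block, so its SEs also hold the spread in level between cultures. Taken within cultures, the phase difference had an SD over cultures of 0.0400 (ATPsynCF6) to 0.151 (SdhD) among the 28 genes. With culture as a block, limma again called 0 of the 28 genes, and the SEs of that fit are not given here. Between libraries labelled knockdown and control, the 28 genes differed by -0.09 to 0.02 in G1 and by -0.09 to 0.09 in G2/M, with SEs of 0.074 to 0.185. Limma called 0 in either phase (adjusted p = 1 for each gene), against 0% of probe sets in G1 and 0% in G2/M. No gene had an unadjusted p under 0.05, while 482 probe sets in G1 and 164 in G2/M had one. Both labels hold a culture with high and a culture with low Slimp signal, so these tests do not compare high with low Slimp.

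The cultures were also compared by their levels. Averaged over both phases, 25 of 28 genes had control 3 and knockdown 2 as their 2 lowest cultures, as did 22.8% of all probe sets. Relative to each gene's mean over cultures, the median of the 28 genes was 0.10 in control 1, 0.04 in control 2, -0.11 in control 3, -0.12 in knockdown 2 and 0.08 in knockdown 3 (log2). All 8 complex IV genes and all 11 complex V genes were below their mean in control 3, and all 8 complex IV genes were in knockdown 2. Of all 18769 probe sets, 8482 were above their mean in control 3 and 9292 in knockdown 2. The 3 exceptions to the order were SdhB, highest in knockdown 2, UQCR-11 and blw.

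**Figure D3:**
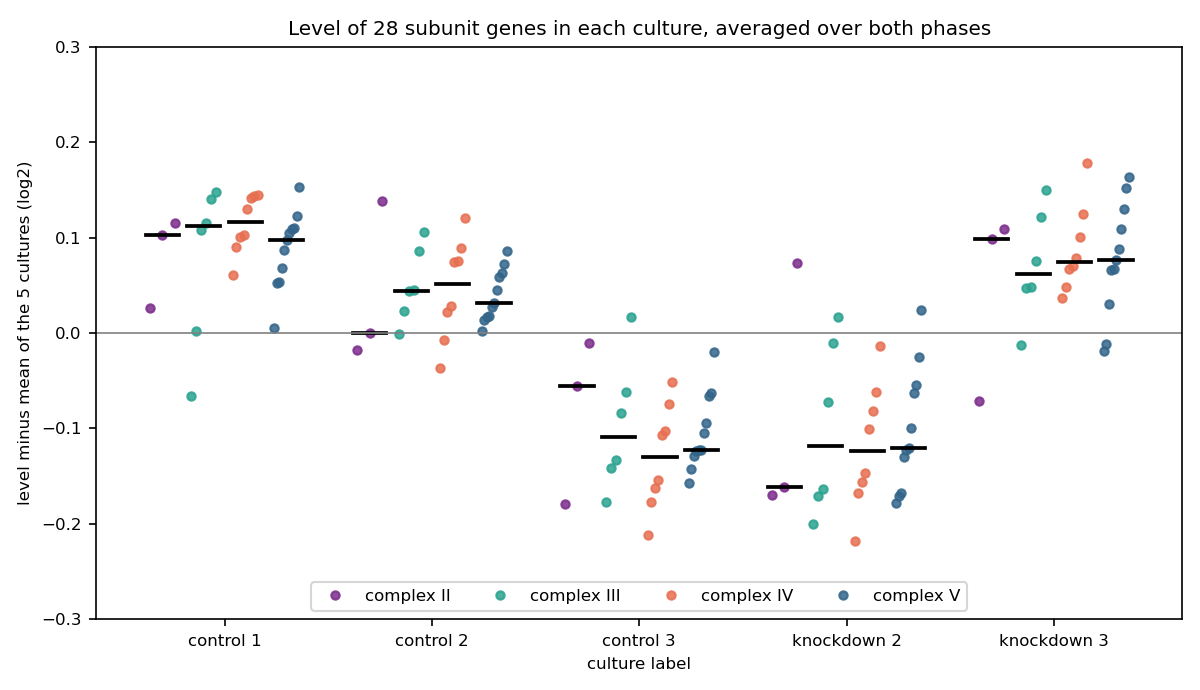
Level of each of the 28 genes in each culture, as the mean of its G1 and G2/M values minus the mean over the 5 cultures (log2), by complex, with bars at the medians. Control 3 and knockdown 2 lie mostly below 0, with complex IV medians of -0.13 and -0.12, and the other 3 cultures mostly above it.

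A moderated F-test across the 5 cultures, with phase as a covariate, called 2 of the 28 genes, against 11.5% of probe sets. That is a smaller share than over all probe sets, so the count does not set the 28 genes apart. COX5A spanned 1.32-fold between its lowest and its highest culture (adjusted p = 0.0247 in limma), and its library values above show control 3 and knockdown 2 below the other 3 cultures in both phases. UQCR-6.4 spanned 1.28-fold (adjusted p = 0.0415 in limma) with the same 2 cultures lowest in both phases. COX8 and ATPsynF spanned 1.25-fold and 1.26-fold without passing (adjusted p of 0.0601 and 0.0646). The smallest spans belonged to blw at 1.03-fold and to UQCR-11 and Cyt-c1 at 1.08-fold. Neither call held over the leaving out of each library in turn, and no 1 library alone carried them. Limma called COX5A alone without the G2/M library of control 1 or that of control 3, and 0 genes without any 1 of the other 8.

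Control 3 and knockdown 2 are also the cultures with the high Slimp signal. Their actin 3′ minus 5′ difference in G1 was 0.65 and 0.59, against 0.35 to 0.46 in the other cultures, and in G2/M 0.46 and 0.52 against 0.35 to 0.49. The other 2 measures were each lower in these cultures in a single phase and overlapped in the other phase. For eIF4A, G1 was 1.28 and 1.19 against 1.32 to 1.43, and G2/M was 1.29 and 1.37 against 1.32 to 1.46. For GAPDH, G2/M was 1.04 and 1.12 against 1.18 to 1.31, and G1 was 1.06 and 0.93 against 1.04 to 1.16. The summed haemocyte marks were 63.70 and 64.33 in G1 in these cultures, against 64.82 to 66.01 in the others. By culture mean, Pxn, Col4a1 and NimC1 were lowest in these 2 cultures, while Hml was highest in knockdown 2 (11.61), eater was highest in control 3 (11.09) and srp was lowest in control 2 (9.54). The 4 G2/M marks had median levels, relative to their means over cultures, of -0.18 in control 3 and -0.16 in knockdown 2. In the other cultures these medians were 0.06 to 0.16, while CycB alone was highest in control 3 (10.09). With each culture 1 sample pair, Slimp signal, RNA quality, the G2/M marks and any other property of a culture cannot be told apart, and their part in the levels was not tested. Without these 2 cultures, a setting added after the Slimp values were seen, 14 of 28 genes were called higher in G2/M, with a median of 0.233. Without control 3 and knockdown 3, 3 genes were called higher, with a median of 0.211. The medians over all probe sets were 0.0077 and 0.0082 in these settings. The share of all probe sets called in them is not given here, so the 2 counts cannot be set against it.

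Other genes of the pathway were read from lists drawn up by function. ATPsynE (0.28) and ox (0.32), subunit genes of complexes V and III outside the list of 34, both rose, and 3 others of that kind were not analysed here. Of 15 measured paralogs of the subunits, many of which are known as testis-expressed copies, 3 rose and 0 fell, with a median of -0.02: Cyt-c1L (0.53), UQCR-11L (0.32) and COX5BL (0.22). Cyt-c1L thus rose while Cyt-c1 gave -0.02, and UQCR-11L rose while UQCR-11 fell. These are log2 differences of separate probe sets, and whether a paralog differs from its partner was not tested. Several paralogs were dim. COX6CL, UQCR-14L, ATPsynbetaL and SdhBL read 3.94 to 5.16 over the libraries, against array medians of 6.55 to 6.61. Others were brighter, such as COX7AL at 10.21 to 10.60. Whether the dim paralogs are expressed was not tested, so their small differences do not show an expressed gene that holds its level.

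Genes that help build the complexes rose in 7 of 12 measured cases. Coa8, a complex IV assembly factor, gave 0.89 ± 0.072 (SE, adjusted p = 0.000224 in limma), more than any of the 28 subunit genes. Scox, which delivers copper to complex IV, gave 0.37, and Sirup, which assists the assembly of complex II, gave 0.43. Of 8 measured genes of the tricarboxylic acid cycle around complex II, 5 rose, led by Idh3a (0.40), ScsbetaG (0.37) and Scsalpha1 (0.31). Ogdh fell, at -0.22 (adjusted p = 0.0396 in limma), and was named after its value was seen.

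Nuclear-encoded complex I genes, the remaining part of the chain, had 22 of 32 higher, 0 lower and a median of 0.253. That list was taken by gene name and is not a like set. It includes the paralog copies ND-20L, ND-24L, ND-51L1, ND-51L2 and ND-B14.5AL, with differences of -0.04 to 0.09. For complexes II to V such copies were listed apart. Mitochondrial ribosomal protein genes had 54 of 69 higher, 1 lower and a median of 0.292. Both lists were also low in control 3 and knockdown 2, with medians of -0.10 in each for complex I and of -0.12 and -0.09 for the ribosomal proteins. Differences between the lists were not tested. Of 4 measured regulator genes linked to nuclear-encoded mitochondrial genes, Dref (0.62, adjusted p = 0.00151) and ewg (0.30, adjusted p = 0.0115), the fly relative of human nuclear respiratory factor NRF1, rose in G2/M in limma. Ets97D (-0.07) and ERR (-0.003) did not pass.

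**Figure D4:**
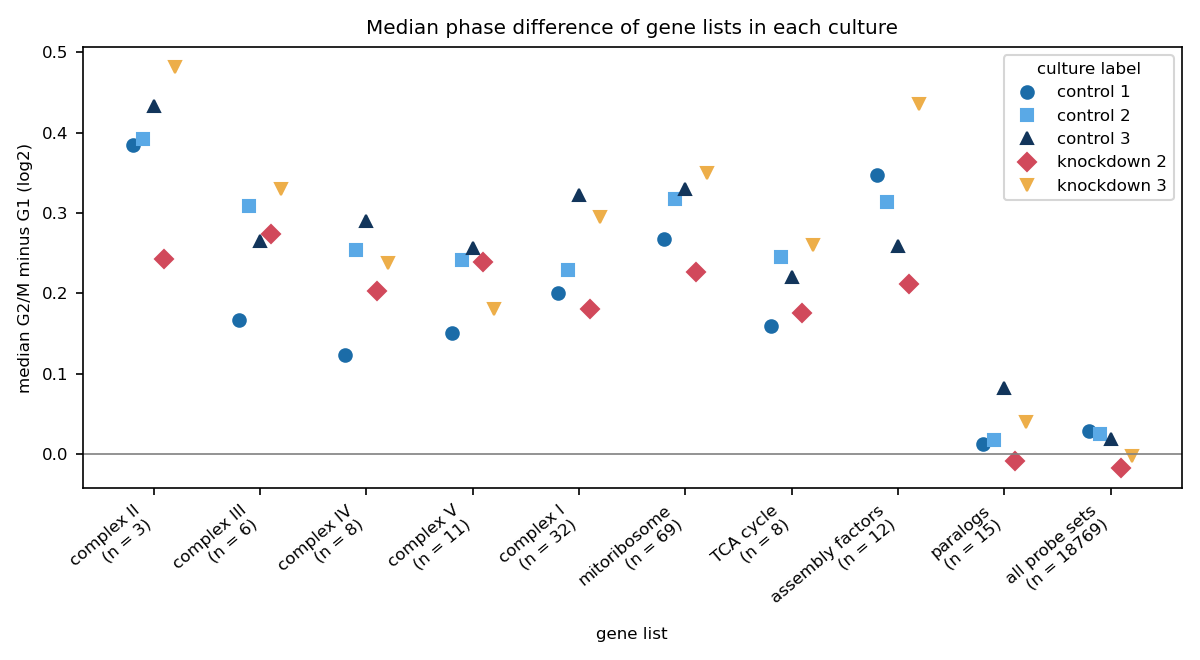
Median G2/M minus G1 difference (log2) of each gene list within each of the 5 cultures. Several of the paralogs read below the array medians. Complex II lies between 0.24 and 0.48 and complexes III, IV and V between 0.12 and 0.33, complex I lies between 0.18 and 0.32 and the mitochondrial ribosomal proteins between 0.23 and 0.35, while the paralogs lie between -0.01 and 0.08 and all probe sets between -0.02 and 0.03.

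Within single cultures, the median G2/M minus G1 difference of the 28 genes was 0.15 in control 1, 0.27 in control 2, 0.26 in control 3, 0.24 in knockdown 2 and 0.26 in knockdown 3. In control 1 the median rise was the smallest, and 24 of 28 genes were higher in G2/M there. The number was 26 of 28 in control 2, control 3 and knockdown 3, and 27 of 28 in knockdown 2. Of all probe sets, 55.7% were higher in G2/M in control 1, 54.8% in control 2 and 53.5% in control 3. The share was 45.7% in knockdown 2 and 49.6% in knockdown 3. Complex II had the largest median in each culture but knockdown 2, at 0.38, 0.39, 0.43 and 0.48 against 0.24.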

How the data were processed

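The deposited table holds log2 values of 18952 probe sets on 10 arrays, made by the authors with RMA per the submitters' processing notes; its version and any later step are not given in the sources used here. No further scaling or filter was applied. Tests covered 18769 probe sets, without the 183 controls of the array. The platform annotation, updated through RefSeq gene identifiers, gave 1 symbol to 13647 probe sets. Each gene was read from its single-gene probe set with the highest mean.

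limma 3.58.1 in R 4.3.3 tested phase over 5 cultures with culture as a block, and, with 1 coefficient per group over all 10 arrays, phase within each genotype label, genotype within each phase and their interaction. A moderated F-test compared cultures. P-values were adjusted by Benjamini-Hochberg at 0.05. The script was tested on simulated data. Members, lists and tests were chosen with earlier results of these data known.

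Phase was tested within cultures. Same-numbered G1 and G2/M libraries of a label deviated together from their group means (r of 0.514 to 0.685 over probe sets). Libraries of equal number but different label did not (-0.661 to -0.412). G1 and G2/M libraries of the same label but different number gave -0.655 to 0.234, with 0.234 and 0.107 between control 1 and control 2. With 2 knockdown libraries per group, deviations mirror each other, so the 0.655 of both knockdown cultures is 1 value. No pair within a group held identical values. Values in every library are given for up to 6 called genes per complex by p, and for the largest and smallest difference of each complex, and of other lists up to 3 genes by p are named. No detection calls were used. The small number of arrays limits precision.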

Additional observations from a re-analysis of the deposited data

How the results depend on the processing

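The phase comparison called 19 of the 28 genes, and 14 to 15 when 1 library or 1 culture was left out, which is the same fit, since a lone library of a culture gives no difference. The count was 7 with no replicate block, and 3 without the cultures control 3 and knockdown 3, a setting added after the data were seen that leaves 3 cultures. It was 17 with cyclic loess, 21 with array medians set equal, 20 without the dimmest 25% of probe sets, 17 with probe sets of a gene averaged and 26 with an intensity trend and robust fit, against 22.9% of probe sets. The count over all probe sets tested also moved. It was 3623 in the main fit, 2189 to 3414 without 1 library or 1 culture, and 1369 to 4302 in the 6 other planned settings. Beyond the main fit, single shares are given here only without the block (7.29%) and with the intensity trend (22.9%). The counts among the 28 genes in the other settings cannot be set against such a share. The Cyt-c1 phase difference, never called, ran from -0.0550 to 0.00515 when 1 library was left out, with the positive value without control 2. No other of the 28 genes changed sign in any of the 23 settings.

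In libraries labelled control the count of 0 became 11 with culture as a replicate block, 1 with array medians set equal and 1 in each of the settings added after the data were seen, without control 3 and knockdown 2 or knockdown 3. All probe sets called in control ran from 165 to 1678 over the planned settings that kept all libraries. In knockdown, for the genotype comparisons and for the interaction, 0 of the 28 genes were called in every setting run. Among cultures, the count of 2 became 5 without the dimmest 25% of probe sets and 16 with an intensity trend and robust fit, against 17.7% of probe sets. All probe sets called numbered 2165 in the main fit and 2039 to 3327 in the planned settings that kept all libraries. They numbered 1139 to 1962 without 1 library and 1188 to 1801 without 1 culture. The count among the 28 genes was 0 to 1 when 1 library was left out, 0 or 1 when 1 culture was left out, and 0 in both added settings. Fewer arrays remain in all of these. The intensity trend changes only the spread estimate and not the differences, and apart from such construction the causes were not tested. A search of promoter sequences that had been planned was not run.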

Other observations

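The spread over the 5 cultures was larger in G1 than in G2/M for 22 of the 28 genes, as it was for 64.6% of all probe sets. For SdhB the SD over cultures was 0.0970 in G1 and 0.0200 in G2/M (log2, n = 5 cultures). The other measured complex II genes went the opposite way, with 0.0973 and 0.151 for SdhC and 0.139 and 0.202 for SdhD.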
